A study of Capra hircus with 36 samples.

Results

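MiR-183, miR-96 and miR-182 are miRNAs made from 3 neighbouring genes, and they were followed here across tissues and altitudes in goats. In the NCBI gene table of the goat assembly ARS1.2, MIR183, MIR96 and MIR182 stand directly after each other, with UBE2H on one side and NRF1 on the other. In vertebrates such neighbouring hairpins are usually cut from a shared primary transcript, and each hairpin can give a strand from its 5′ arm (5p) and a strand from its 3′ arm (3p). The cluster is best known from sensory cells of the retina and the inner ear, where changes in the seed of miR-96 cause hearing loss, and it is also present in many epithelia. MiR-96 and miR-182 have closely related seeds, the stretch of a miRNA that pairs with its targets.

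The members were all rows named miR-183, miR-96 or miR-182, of either arm, and they were selected on measured values. A far lower level of chi-miR-96-5p in high-altitude liver drew attention to them, so all liver values are given as a description without any test. The rule found 4 of 1391 miRNAs, namely chi-miR-183-5p, chi-miR-183-3p, chi-miR-96-5p and chi-miR-182-5p. Another 6 rows carry the same numbers but were newly predicted by the authors, and these were left out.

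Small RNA had been sequenced from 6 tissues (lung, heart, spleen, liver, kidney and the longissimus muscle) of adult female goats about 3 years old. The high-altitude group was 3 Tibetan goats living at 3000 m, and the low-altitude group was 3 Chuandong White goats living at 600 m. Every tissue and altitude thus had 3 libraries, 36 in all. Population and altitude differ together, so their effects cannot be told apart. The 36 libraries held from 7108635 to 14407748 miRNA counts, and levels are given as counts per 1000000 counts of the library, written RPM. A count of 3 corresponded to 0.208 to 0.422 RPM, depending on the library, and this limit covers counting error only.

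The tissue labels were compared with marker miRNAs. The liver-cell miRNA miR-122-5p lay between 6118 and 179917 RPM in the 6 liver libraries and reached at most 207.9 RPM in any library of another tissue. The airway cilia markers miR-34b-5p and miR-34c-5p, 2 of 3 listed markers that had a row, summed to 2085 RPM or more in each lung library and to at most 49.6 RPM elsewhere. Heart libraries had 17012 RPM or more of miR-208b-3p and miR-499-5p, against at most 4783 RPM in muscle, the tissue with the next highest sums. Muscle libraries had the highest mean of miR-206-3p, miR-1-3p and miR-133a-3p, 248645 RPM, although the lowest muscle library (182812 RPM) was below the highest heart library (208016 RPM). Spleen had the highest mean of 5 leukocyte miRNAs, 43233 RPM, although its lowest library, high-altitude replicate 1 (17602 RPM), was below the highest liver library (22824 RPM). Kidney had the highest mean sum of miR-10a-5p, miR-10b-5p and miR-194-5p (3 of 4 listed markers that had a row), 410206 RPM. Its lowest library (225052 RPM) was below the highest lung library (235496 RPM). MiR-10b-5p was the most abundant of them in each kidney, and the others were highest in other tissues. MiR-10a-5p reached 205461 RPM in lung against at most 114526 RPM in kidney. MiR-194-5p was at 11198.5 RPM or more in each liver and at most 4518 RPM in kidney. By its sum, each of these lists thus had its highest mean in the tissue it marks.

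Over all libraries, chi-miR-182-5p was the most abundant member. It had 32547 counts in total and a mean of 90.3 RPM, which placed it at rank 153 of 1391 miRNAs. Chi-miR-183-5p had 9088 counts and a mean of 25.1 RPM (rank 235), and chi-miR-96-5p had 1946 counts and a mean of 5.77 RPM (rank 357). The opposite strand chi-miR-183-3p was almost absent, with 12 counts spread over 7 libraries and no more than 4 in any of them. It made up 0.132% of the counts of both miR-183 arms (95% exact binomial confidence interval 0.0682 to 0.230%). The interval pools the reads of all libraries and covers counting error only. No 3p row was listed for miR-96 or miR-182.

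Chi-miR-182-5p was read in 36 of 36 libraries, chi-miR-183-5p in 33 and chi-miR-96-5p in 27. Lung, kidney and liver held nearly all of the reads, and heart, muscle and spleen held few. All of these are whole tissues, in which fewer cells of a type and less RNA per cell cannot be told apart.

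**Figure D1:**
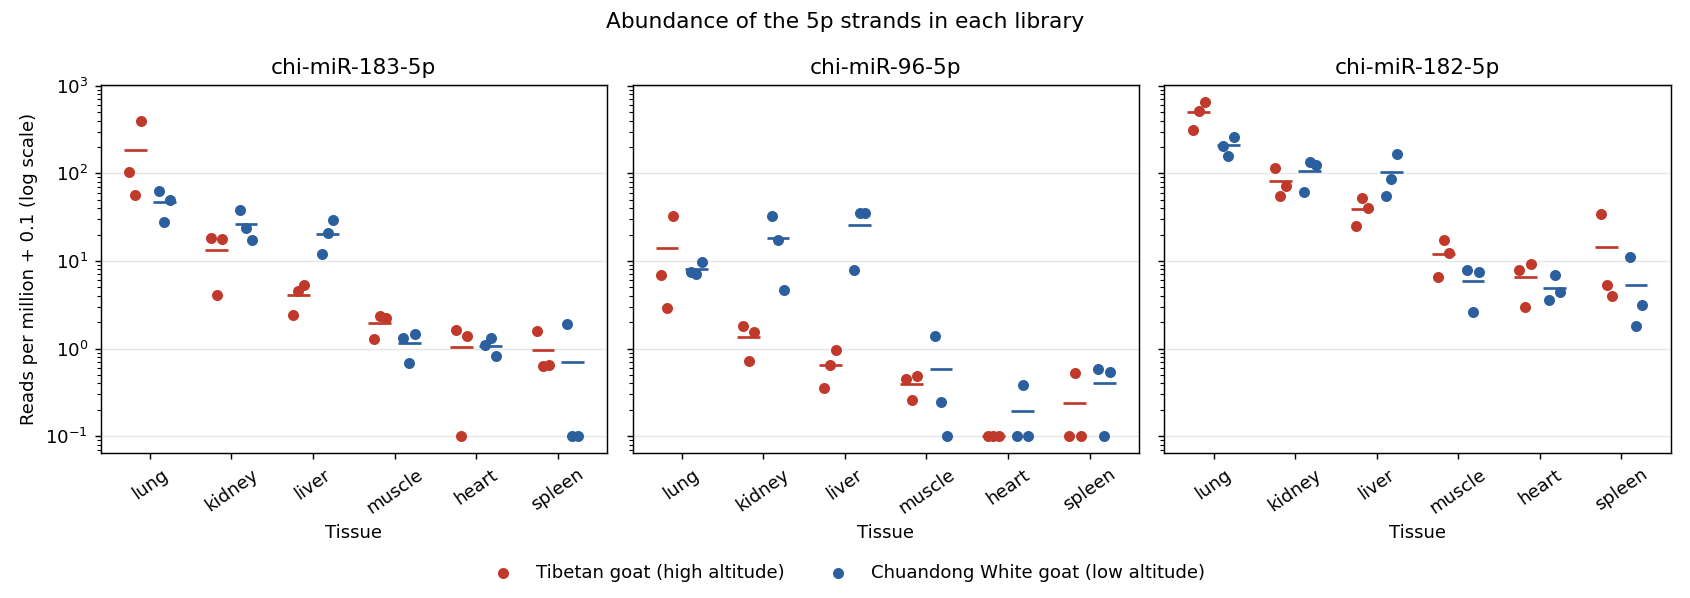
Each point is 1 library, the y axis is RPM plus 0.1 on a log scale, the x axis is the tissue, red is the high-altitude and blue the low-altitude population, and short lines are means of 3 libraries. Over both altitudes, the means of all 3 strands were highest in lung, kidney and liver. Chi-miR-96-5p was lower in high-altitude liver (0.254 to 0.873 RPM) than in low-altitude liver (7.71 to 35.2 RPM).

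Chi-miR-182-5p was highest in lung, where the 6 libraries ranged from 158 RPM to 658 RPM with a mean of 353 ± 195 RPM (SD, n = 6). Its level was 93.5 ± 34.8 RPM in kidney and 70.7 ± 50.9 RPM in liver, then 9.77 ± 12.2 RPM in spleen, 8.93 ± 5.15 RPM in muscle and 5.70 ± 2.49 RPM in heart (SD, n = 6 each). The spleen mean rested on high-altitude replicate 1 at 33.9 RPM, and without that goat it was 4.94 RPM, which put spleen last, and the edgeR fit also placed spleen below muscle (log2 fold change -1.05). Lung alone supplied 66.0% of its counts. Every lung library was above every kidney library, and every kidney library was above every muscle library.

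Chi-miR-183-5p followed the same order at its upper end. Its mean was 116 ± 139 RPM in lung, 19.7 ± 11.0 RPM in kidney and 12.2 ± 10.5 RPM in liver (SD, n = 6 each). Muscle had 1.46 ± 0.630 RPM, heart 0.955 ± 0.542 RPM and spleen 0.731 ± 0.762 RPM. Lung supplied 77.3% of its counts, and the large SD there came from 1 library at 396 RPM, while the other lung libraries lay between 28.0 and 104 RPM. In heart 1 library and in spleen 2 libraries had no read.

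Chi-miR-96-5p was spread more evenly over the upper tissues. Its mean was 13.2 ± 17.1 RPM in liver, 11.1 ± 10.8 RPM in lung and 9.65 ± 12.7 RPM in kidney (SD, n = 6 each), and lung supplied 34.7% of its counts. Muscle had 0.392 RPM, spleen 0.224 RPM and heart 0.0464 RPM on average. In heart, 1 of 6 libraries had any read of it, with 3 counts. The order of its upper tissues was not firm, since the SD exceeded or nearly equalled the mean in each, and in liver and in kidney the mean combined very unequal altitudes.

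The difference between tissues was tested with edgeR over the 5 tissues other than liver, since the liver libraries were behind the choice of the members. The test first planned was over all 6 tissues. All 3 strands differed between the 5 tissues, with an adjusted p of 6.26e-09 for chi-miR-182-5p, 6.59e-07 for chi-miR-183-5p and 4.17e-05 for chi-miR-96-5p. Chi-miR-183-3p did not pass (adjusted p = 0.303). A difference between tissues was common in these data, as 36.1% of all miRNAs passed the same test.

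Tissues next to each other in the order, with liver passed over, were then compared in an edgeR fit of all libraries, in which each tissue is the average of its altitudes on the log scale. The step from lung to kidney was not called for chi-miR-182-5p (log2 fold change 1.31 ± 0.54, SE, adjusted p = 0.107), although every lung library was above every kidney library in RPM, or for chi-miR-183-5p (1.76 ± 0.82, SE, adjusted p = 0.171), whose libraries overlapped. In that contrast 14.7% of all miRNAs were called. The drop from kidney to spleen was called for chi-miR-182-5p, at 3.90 ± 0.59 (SE, adjusted p = 1.25e-05, 16.5% of all miRNAs called), and that from kidney to muscle for chi-miR-183-5p, at 3.34 ± 0.88 (SE, adjusted p = 0.00817, 13.7% of all miRNAs called). In both cases the libraries did not overlap.

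By mean RPM, liver lay between these tissues for both strands. The fit placed it below kidney by 1.07 for chi-miR-182-5p and 1.79 for chi-miR-183-5p on the log2 scale, with overlapping libraries. Every liver library was above every muscle library for chi-miR-183-5p. These liver values were not tested.

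At the lower end no neighbours were called. Spleen and muscle (17.3% of all miRNAs called) and muscle and heart (9.63%) had adjusted p of 0.203 and 0.402 for chi-miR-182-5p. For chi-miR-183-5p, muscle and heart gave an adjusted p of 0.851, and heart and spleen (13.7%) one of 0.488.

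For chi-miR-96-5p none of the 4 neighbouring steps was called by edgeR, and 1 of them, kidney against muscle, had an unadjusted p under 0.05. Lung against kidney had an adjusted p of 1. Kidney against muscle came nearest, at a log2 fold change of 3.10 ± 1.08 (SE, adjusted p = 0.0558), and the steps from muscle to spleen and from spleen to heart had adjusted p of 0.197 and 0.333. The fit placed lung above liver by 1.68 (log2) although the mean RPM was higher in liver, and this was not tested.

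Steps wider than neighbours were looked at after the order had been seen. Lung was above muscle for all 3 strands, by 4.17 ± 0.60 for chi-miR-182-5p (adjusted p = 3.52e-06), 5.09 ± 0.96 for chi-miR-183-5p (adjusted p = 0.000159) and 3.66 ± 1.10 for chi-miR-96-5p (adjusted p = 0.0175) on the log2 scale with SE, in a contrast that called 19.9% of all miRNAs. Lung libraries and muscle libraries did not overlap for any of them. In the same edgeR fit kidney was above spleen (16.5% of all miRNAs called) for 2 strands. The steps were 5.27 ± 1.20 for chi-miR-96-5p (adjusted p = 0.00225) and 5.45 ± 0.98 for chi-miR-183-5p (adjusted p = 0.000138). Kidney was above muscle (13.7%) by 2.85 ± 0.57 for chi-miR-182-5p (adjusted p = 0.000412). The libraries did not overlap in these steps either.

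Between altitudes, liver showed the pattern that had led to the choice of these miRNAs. Chi-miR-96-5p had 2, 5 and 8 counts (0.254, 0.543 and 0.873 RPM) in the high-altitude livers and 67, 247 and 296 counts (7.71, 34.7 and 35.2 RPM) in the low-altitude livers. The mean was 46.5 times higher at low altitude. Chi-miR-183-5p had 2.29, 4.45 and 5.24 RPM in the high-altitude livers against 11.7, 20.5 and 28.9 RPM in the low-altitude livers, with a mean 5.11 times higher at low altitude.

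Chi-miR-182-5p had 24.7, 52.5 and 39.7 RPM in the high-altitude livers against 55.6, 85.8 and 166 RPM, with a mean 2.63 times higher at low altitude. For all 3 strands every high-altitude liver was below every low-altitude liver, but the gap was narrow for chi-miR-182-5p and wide for chi-miR-96-5p. In liver, 11.7% of the miRNAs with reads had groups that did not overlap in one direction or the other, and since liver was the basis of the choice nothing is read from this. The fitted log2 fold changes, high over low, were -5.30 for chi-miR-96-5p, -2.20 for chi-miR-183-5p and -1.32 for chi-miR-182-5p.

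Liver-cell and epithelial markers were set beside these values. MiR-122-5p was at 16955, 6118 and 179917 RPM in the high-altitude livers and at 26767, 53506 and 20257 RPM in the low-altitude livers, and the groups overlapped. The summed level of 5 epithelial miRNAs (miR-200a-3p, miR-200b-3p, miR-200c-3p, miR-141-3p and miR-429-3p, none at 0) was 525, 933 and 1081 RPM in the high-altitude livers and 898, 1728 and 1704 RPM in the low-altitude livers. The most abundant of the 5 was miR-141-3p in 5 of the 6 livers and miR-200b-3p in the other. These sums also overlapped between the groups.

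Of 10 marker lists, 2 had sums that did not overlap between the altitudes in liver. The red cell markers found (miR-486-5p and miR-144-5p, 2 of 3 listed) summed to 30.1, 6196 and 4283 RPM in the high-altitude livers and to 8704, 9581 and 8360 RPM in the low-altitude livers. MiR-486-5p was the most abundant in 5 of the 6 livers, and miR-144-5p was at 0 in high-altitude replicate 3. Over both altitudes the red cell list had its highest means in muscle (22879 RPM) and heart (22407 RPM), against 4201 RPM in spleen. Its sum is thus not read as red cell content. The heart and slow fibre markers miR-208b-3p and miR-499-5p, mostly miR-499-5p and neither at 0, summed to 287, 227 and 187 RPM in the high-altitude livers and to 17.8, 140.7 and 19.5 RPM in the low-altitude livers. The part of these markers in the liver pattern was not tested.

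The remaining tissues had not been used in the choice and were tested. A miRNA was called where the adjusted p of edgeR was under 0.05 and the log2 fold change was at least 1.5 in size. None of the 15 combinations of the 3 strands with heart, kidney, lung, muscle and spleen was called; edgeR gave an unadjusted p under 0.05 in 3 of them, and DESeq2 called 1. Calls were rare in these fits for all miRNAs, at 0.0% in heart, 0.0% in kidney, 0.0% in lung, 0.0719% in muscle and 0.144% in spleen, together 3 calls in 6955 tests, against 385 at an unadjusted p under 0.05 and 148 by DESeq2. The 3 were chi-miR-409-5p in muscle and chi-miR-100-5p and chi-miR-99a-5p in spleen, named here after their values were seen.

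In kidney, chi-miR-96-5p had 1.68, 0.622 and 1.44 RPM (18, 6 and 16 counts) at high altitude and 32.3, 17.3 and 4.54 RPM (319, 195 and 46 counts) at low altitude. Every high-altitude kidney was below every low-altitude kidney, as in liver. The log2 fold change was -4.01 ± 1.24 (SE) with an adjusted p of 0.873 in edgeR, so it was not called, while DESeq2 gave an adjusted p of 0.0407. This was 1 of the 3 combinations with an unadjusted p under 0.05, and both of the others were in lung. Without low-altitude replicate 1, the library with the highest level, the log2 fold change was -2.56.

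The other strands did not share that separation in kidney. Chi-miR-183-5p had 18.0, 3.94 and 17.6 RPM at high altitude against 37.8, 23.7 and 17.1 RPM at low altitude (log2 fold change -0.96 ± 0.99, SE, edgeR adjusted p = 1). Without low-altitude replicate 1 its log2 fold change was 0.067. Chi-miR-182-5p had 115, 55.3 and 71.9 RPM against 60.6, 135 and 123 RPM (-0.08 ± 0.59, SE, edgeR adjusted p = 1). In both cases the groups overlapped, and for chi-miR-182-5p the sign depended on the scaling (0.01 with RLE size factors). Groups that did not overlap were found for 1 of the 3 strands in kidney, where 8.67% of the miRNAs with reads had them.

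In lung the direction was the opposite. Chi-miR-182-5p had 316, 521 and 658 RPM at high altitude and 206, 158 and 259 RPM at low altitude. Every high-altitude lung was above every low-altitude lung. The log2 fold change was 1.58 ± 0.54 (SE) with an adjusted p of 0.832 in edgeR, so it was not called.

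Chi-miR-183-5p had 104, 56.3 and 396 RPM in the high-altitude lungs and 62.6, 28.0 and 48.9 RPM in the low-altitude lungs. The groups overlapped, and 1 high-altitude lung, replicate 3, stood well above the rest. The log2 fold change was 2.55 ± 1.01 (SE, edgeR adjusted p = 0.832), and without that library it was 0.96. Chi-miR-96-5p had 6.84, 2.81 and 32.7 RPM against 7.33, 7.0 and 9.72 RPM, with a log2 fold change of 1.44 ± 1.10 (SE, edgeR adjusted p = 0.856) that became -0.51 without the same library. Groups that did not overlap were found for 1 of the 3 strands in lung, against 12.6% of the miRNAs with reads.

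Marker miRNAs were set beside the high-altitude lung that stood apart. Its summed airway cilia markers were 2874 RPM, against 4893 and 10557 RPM in the other high-altitude lungs and 8305, 2085 and 6767 RPM in the low-altitude lungs. Its 5 epithelial miRNAs summed to 8186 RPM, against 6470 and 6388 RPM in the other high-altitude lungs and 7557, 13086 and 8442 RPM in the low-altitude lungs. This was the highest sum of the high-altitude lungs and lay within the low-altitude range, and its chi-miR-200c-3p (706 RPM) was the highest of the 6 lungs. MiR-141-3p was the most abundant epithelial marker in each lung, and miR-200b-3p was at 0 in high-altitude replicates 1 and 3, although it was read in the other lungs. Of the 10 marker lists, 3 had sums that did not overlap between the altitudes in lung. The 4 mesenchymal and smooth muscle miRNAs, mostly miR-143-3p and none at 0, summed to 154649, 162843 and 258903 RPM in the high-altitude lungs and to 297227, 310659 and 275687 RPM in the low-altitude lungs. The liver-cell miRNA miR-122-5p had 19.6 to 129 RPM at high and 5.69 to 12.7 RPM at low altitude. The heart and slow fibre markers, mostly miR-499-5p and neither at 0, had 20.1 to 105 RPM at high and 5.06 to 16.2 RPM at low altitude. The high-altitude lung that stood apart was the highest in both of the latter. It also had the lowest sum of the endothelial markers, 7543 RPM against 13483 to 38674 RPM (2 of 2 found, mostly miR-126-3p), and the highest of the skeletal muscle markers, 1604 RPM against 201 to 993 RPM (3 of 3 found, mostly miR-133a-3p), with no marker at 0 in either. The part of these markers in the lung values was not tested.

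Heart, muscle and spleen had few reads of the cluster. In muscle, chi-miR-182-5p had 6.39, 17.2 and 12.4 RPM at high altitude and 7.68, 2.51 and 7.36 RPM at low altitude (log2 fold change 1.13 ± 0.60, SE, edgeR adjusted p = 0.799). Chi-miR-183-5p stayed between 0.591 and 2.27 RPM there and chi-miR-96-5p between 0 and 1.31 RPM, and the altitudes overlapped for each strand. Of the 10 marker lists, 3 had sums that did not overlap between the altitudes in muscle. The 5 epithelial miRNAs summed to 20.7, 75.9 and 28.8 RPM at high altitude and to 14.1, 5.32 and 15.1 RPM at low altitude. The most abundant was miR-200b-3p in high-altitude replicate 2 and low-altitude replicate 1 and miR-200a-3p in the other muscles, and miR-200b-3p and miR-200c-3p were at 0 in high-altitude replicate 3 and low-altitude replicate 2. The 4 mesenchymal miRNAs, mostly miR-143-3p and none at 0, summed to 57866, 27215 and 53179 RPM at high and to 19376, 23521 and 25550 RPM at low altitude. The 3 skeletal muscle markers, mostly miR-133a-3p and none at 0, summed to 238582, 246085 and 182812 RPM at high and to 258292, 277656 and 288443 RPM at low altitude. The part of these markers in the muscle values was not tested.

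In heart, chi-miR-182-5p ranged from 2.91 to 9.01 RPM and chi-miR-183-5p from 0 to 1.54 RPM, with adjusted p of 1 in edgeR for both. Chi-miR-96-5p was at or under 3 counts in each heart library, so no fold is given. Of the 10 marker lists, 5 had sums that did not overlap between the altitudes in heart, all higher at high altitude. The 5 epithelial miRNAs summed to 50.0, 12.9 and 49.5 RPM at high and to 11.3, 12.4 and 7.69 RPM at low altitude. The most abundant of them was miR-200a-3p, miR-200b-3p or miR-141-3p, with miR-200b-3p at 0 in replicate 3 of either altitude. The mesenchymal miRNAs, mostly miR-143-3p and none at 0, summed to 119163 to 192262 RPM at high and 60850 to 77893 RPM at low altitude. The kidney markers (3 of 4 found, mostly miR-10b-5p, none at 0) summed to 11790 to 19786 RPM and 8913 to 11569 RPM, and the 5 leukocyte miRNAs (mostly miR-142-5p, none at 0) to 2002 to 3509 RPM and 1531 to 1924 RPM. The airway cilia markers, mostly miR-34c-5p, summed to 5.50 to 16.1 RPM and 1.02 to 4.29 RPM, with miR-34b-5p at 0 in low-altitude replicate 2. The part of these markers in the heart values was not tested.

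In spleen, chi-miR-182-5p had 33.9, 5.19 and 3.91 RPM at high altitude and 10.9, 1.73 and 3.00 RPM at low altitude (1.62 ± 1.16, SE, edgeR adjusted p = 0.730). The high value was that of replicate 1, and without this goat the log2 fold change was -0.30. The same spleen had the lowest leukocyte sum, 17602 RPM against 35256 to 67519 RPM in the others, the highest sum of the kidney markers, 74812 RPM against 15857 to 29578 RPM, and the highest sum of the red cell markers, 11988 RPM against 112 to 5929 RPM, all of it miR-486-5p with miR-144-5p at 0. The kidney marker miR-194-5p was at 279 RPM in that spleen, within the 217 to 458 RPM of the other spleens. MiR-486-5p was at 0 in high-altitude replicates 2 and 3, whose red cell sums of 112 and 210 RPM were miR-144-5p alone. Spleen of high-altitude replicate 1 also had the lowest mesenchymal sum (358850 RPM against 374163 to 568622 RPM). Its endothelial sum (6359 RPM against 7349 to 12518 RPM) and its miR-122-5p (3.56 RPM against 16.8 to 36.7 RPM) were the lowest as well. Of the 10 marker lists, 3 had sums that did not overlap between the altitudes in spleen, none with a marker at 0. The mesenchymal miRNAs, mostly miR-143-3p, were at 358850 to 408705 RPM at high and 414575 to 568622 RPM at low altitude. The kidney markers, mostly miR-10b-5p, were at 21308 to 74812 RPM and 15857 to 18709 RPM, and the airway cilia markers, mostly miR-34c-5p, at 30.5 to 39.7 RPM and 4.49 to 11.7 RPM. The part of these markers in the spleen values was not tested. Chi-miR-183-5p and chi-miR-96-5p stayed at or under 1.81 and 0.476 RPM in spleen, with log2 fold changes of 0.61 ± 1.92 and -1.11 ± 2.10 (SE, edgeR adjusted p of 1 for both). Over the alternatives that of chi-miR-96-5p ran from -4.52 to -0.55, at no more than 5 counts per library. None of the 3 strands had groups that did not overlap in heart, muscle or spleen, where 20.0%, 13.7% and 14.4% of the miRNAs with reads had them.

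**Figure D2:**
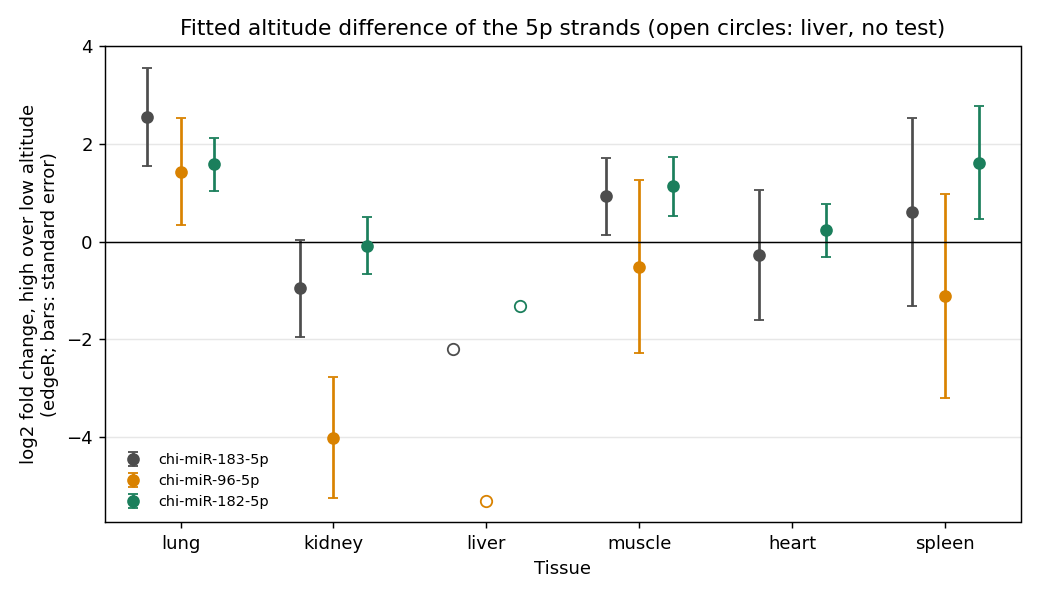
The y axis is the log2 fold change of high over low altitude from edgeR, the x axis is the tissue, filled points carry their standard error, and open circles are the liver values, which were not tested. Chi-miR-96-5p lay at -4.01 in kidney and -5.30 in liver, while all 3 strands lay above 0 in lung; its heart value is left out because it rests on 3 counts, and no tested value was called by edgeR.

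Whether the altitude effect differed between heart, kidney, lung, muscle and spleen was tested as an interaction in edgeR. None of the 3 strands passed, with an adjusted p of 0.798 for chi-miR-96-5p and 1 for both chi-miR-183-5p and chi-miR-182-5p, and 0.216% of all miRNAs passed. The opposite directions in kidney and lung are therefore given as values and not as a difference between tissues.

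The strands did not keep a fixed proportion. Chi-miR-182-5p made up most of the counts of the 3 strands in every tissue, from 77.1 ± 9.93% in lung to 89.6 ± 6.79% in spleen (SD, n = 6 each). Chi-miR-96-5p made up 2.41 ± 1.16% in lung, 6.92 ± 9.32% in kidney and 9.0 ± 9.65% in liver. In kidney and liver the SD of its share exceeded the mean.

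Set against chi-miR-183-5p, chi-miR-96-5p was lower at high altitude in kidney and lung, the tissues outside the choice with enough reads. In kidney there were 11.1 ± 4.10 counts of chi-miR-96-5p per 100 of chi-miR-183-5p at high altitude and 61.7 ± 31.1 at low altitude (SD, n = 3 each). In lung there were 6.61 ± 1.65 and 18.9 ± 6.70. Liver, the tissue behind the choice, had 13.3 ± 2.94 and 119 ± 51.8, given as a description only. Its high-altitude value rests on 2, 5 and 8 counts of chi-miR-96-5p. The groups did not overlap in these tissues. Over all miRNAs with reads, the same ratio to chi-miR-183-5p had groups that did not overlap, in one direction or the other, for 6.02% in kidney, 14.5% in lung and 30.9% in liver, where nothing is read from it. The lowest low-altitude value was 26.6 in kidney and 11.7 in lung, and the highest high-altitude value was 15.8 in kidney and 8.28 in lung. This ratio was examined after the values had been seen and was not tested; with 3 goats against 3, a two-sided exact permutation test cannot go below 0.1.

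The lung library that stood apart in both strands did not stand apart in this ratio, which was 8.28 there against 6.58 and 4.98 in the other high-altitude lungs. Relative to chi-miR-182-5p the pattern was not the same in lung. There were 0.538 to 4.98 counts of chi-miR-96-5p per 100 of chi-miR-182-5p in the high-altitude lungs and 3.55 to 4.43 in the low-altitude lungs, and the groups overlapped. In kidney there were 1.13 to 2.0 and 3.68 to 53.3, and in liver 1.03 to 2.20 and 13.9 to 40.5, without overlap. How many of all miRNAs have groups that do not overlap on this scale was not counted. Nothing is therefore read from the lack of overlap, and it was not tested. On the same scale, chi-miR-183-5p overlapped between altitudes in kidney (15.7 ± 8.67 and 31.2 ± 26.9 counts per 100, SD, n = 3 each) and in lung (34.6 ± 24.7 and 22.3 ± 6.97).

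**Figure D3:**
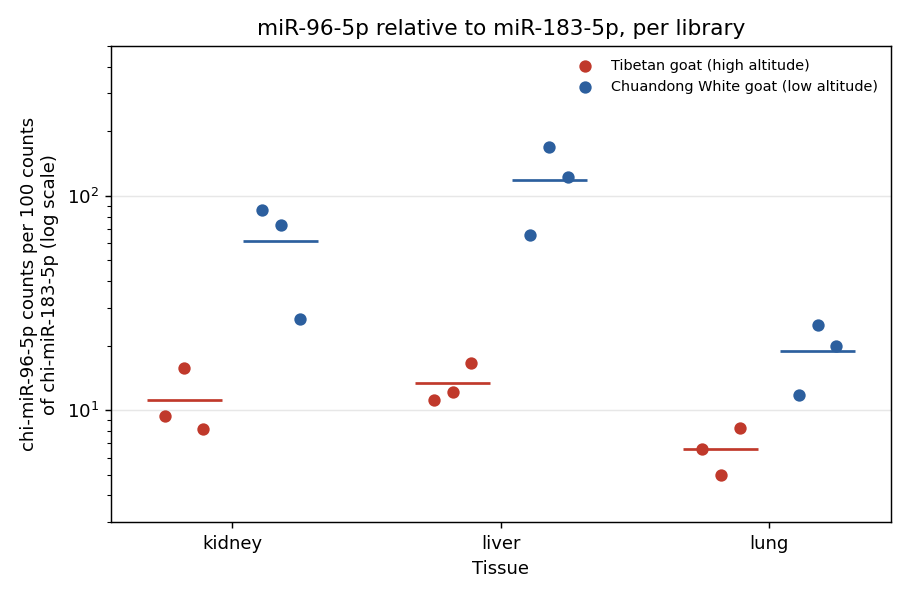
The y axis is the number of chi-miR-96-5p counts per 100 counts of chi-miR-183-5p on a log scale, the x axis is the tissue, each point is 1 library and short lines are means of 3. In kidney and lung every high-altitude library (red) lay below every low-altitude library (blue) of its tissue, with at most 15.8 against at least 26.6 in kidney and at most 8.28 against at least 11.7 in lung.

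Over the 6 tissue means of log2(RPM + 1), chi-miR-183-5p and chi-miR-182-5p had a Pearson r of 0.988 (Spearman rho 0.829), chi-miR-96-5p and chi-miR-182-5p 0.930 (rho 0.771), and chi-miR-183-5p and chi-miR-96-5p 0.888 (rho 0.771). These describe 6 tissues of the same goats, liver among them, and without liver r was 0.991, 0.970 and 0.953 in the same order (rho 0.70, 0.90 and 0.90). They reflect that the mean of each strand was high in lung, kidney and liver and low in the other tissues. For chi-miR-96-5p the liver mean rested on the low-altitude libraries. Its high-altitude livers (0.254 to 0.873 RPM) lay within the range of muscle (0 to 1.31 RPM).

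Within a tissue, over its 6 libraries, the strands were compared in 15 relations outside liver. Each r and rho was given an exact two-sided permutation test and adjusted over 30 coefficients. The 6 libraries pool both altitudes, so r and its p mix a difference between altitudes with variation between goats. No coefficient had an adjusted p under 0.05, which 6 libraries and 30 coefficients can hardly give, so nothing is read from it. The closest pair was chi-miR-183-5p with chi-miR-182-5p in muscle, at r = 0.985 (exact p = 0.00278, adjusted 0.0833) and rho = 0.943 (exact p = 0.0167, adjusted 0.149), and r was 0.970 without the 2 libraries farthest from the median.

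The same pair had r = 0.866 in spleen (exact p = 0.0222, adjusted 0.149) with rho = 0.870 (exact p = 0.0333, adjusted 0.149), and r = 0.80 in heart (exact p = 0.0208, adjusted 0.149) with rho = 0.886 (exact p = 0.0333, adjusted 0.149). Without the 2 farthest libraries r was 0.845 in spleen and 0.777 in heart. In lung it had r = 0.774 (exact p = 0.0528, adjusted 0.194) and rho = 0.714 (exact p = 0.136, adjusted 0.371), and r fell to 0.00346 without the 2 farthest libraries and so rested on them. In kidney it was lower, at r = 0.342 (exact p = 0.597, adjusted 1; rho = 0.257, exact p = 0.658, adjusted 1; r = 0.494 without the 2 farthest libraries). The pair with the highest r in kidney was chi-miR-183-5p with chi-miR-96-5p (r = 0.788, exact p = 0.0347, adjusted 0.149; rho = 0.829, exact p = 0.0583, adjusted 0.194; r = 0.864 without the 2 farthest libraries).

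The r of chi-miR-96-5p with either of the other strands lay between -0.08 and 0.28 in heart, muscle and spleen, at levels near the detection limit. It was also low with chi-miR-182-5p in tissues with more reads, at 0.164 in kidney (exact p = 0.679, adjusted 1; rho = 0.429, exact p = 0.419, adjusted 1; r = 0.851 without the 2 farthest libraries) and 0.320 in lung (exact p = 0.593, adjusted 1; rho = 0.0857, exact p = 0.919, adjusted 1; r = 0.208 without them). In lung, chi-miR-183-5p with chi-miR-96-5p had r = 0.757 (exact p = 0.124, adjusted 0.371) and rho = 0.257 (exact p = 0.658, adjusted 1), and r fell to 0.0291 without the 2 farthest libraries and so rested on them. In liver, given without a test, r was 0.977 (rho 1) for chi-miR-183-5p with chi-miR-96-5p, 0.938 (rho 0.943) for chi-miR-183-5p with chi-miR-182-5p and 0.878 (rho 0.943) for chi-miR-96-5p with chi-miR-182-5p. These libraries fell into an upper low-altitude and a lower high-altitude set.

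Among 291 miRNAs outside the cluster with a mean of at least 10 RPM, the one most like each strand over the 36 libraries was chi-miR-200c-3p. Its Pearson r of log2(RPM + 1) was 0.939 with chi-miR-183-5p, 0.935 with chi-miR-182-5p and 0.778 with chi-miR-96-5p. Next came chi-miR-141-3p (0.887) and miR-205-5p (0.883) for chi-miR-183-5p, miR-205-5p (0.921) and chi-miR-141-3p (0.910) for chi-miR-182-5p, and chi-miR-141-3p (0.766) and chi-miR-429-3p (0.688) for chi-miR-96-5p. All of these are miRNAs known from epithelial cells, and the libraries compared share tissues and goats, so r describes the tissue pattern. The strands themselves had r of 0.952 (chi-miR-183-5p with chi-miR-182-5p), 0.849 (chi-miR-183-5p with chi-miR-96-5p) and 0.770 (chi-miR-96-5p with chi-miR-182-5p). These 36 libraries include the 6 of liver, which were behind the choice. Over the 30 others, looked at later, the strands had r of 0.958, 0.892 and 0.809 in the same order. Chi-miR-200c-3p was then still first for chi-miR-183-5p (0.946) and chi-miR-96-5p (0.866), while miR-205-5p (0.948) came before it (0.942) for chi-miR-182-5p.

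A list of epithelial miRNAs, miR-141, miR-200a, miR-200b, miR-200c, miR-429, miR-203, miR-205 and miR-375, gave 14 rows of either arm for comparison. Between the 5 tissues other than liver, 12 of the 14 passed the edgeR test, as did 3 of the 4 cluster rows and 36.1% of all miRNAs. Between altitudes, edgeR called none of the 70 combinations with the 5 tested tissues in either direction; 8 had an unadjusted p under 0.05, and DESeq2 called 5, against 385 and 148 of 6955 over all miRNAs.

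Chi-miR-200c-3p, the miRNA most like the cluster, had 14.2, 25.6 and 15.8 RPM in the high-altitude kidneys and 57.3, 112 and 130 RPM in the low-altitude kidneys. Its groups did not overlap, and the log2 fold change was -2.33 ± 0.36 (SE, edgeR adjusted p = 0.384). In lung it had 621, 418 and 706 RPM at high altitude against 261, 298 and 267 RPM at low altitude (1.41 ± 0.50, SE, edgeR adjusted p = 0.832). Neither was called by edgeR, and DESeq2 called the one in kidney. MiR-205-5p had means of 598 and 176 RPM in high-altitude and low-altitude lung, without overlap (1.95 ± 0.43, SE, edgeR adjusted p = 0.757). DESeq2 called it there (adjusted p = 0.000598). In kidney its means were 62.0 and 135 RPM, with overlapping groups (-1.05 ± 0.61, SE, edgeR adjusted p = 0.959). The likeness that singled out both miRNAs was measured over libraries that include these, so their kidney and lung values are no separate support for those of the strands.

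The direction was counted over epithelial rows with reads at both altitudes of a tissue, a filter set after the values had been seen. Of the 13 such rows in kidney, 12 lay below 0 and 1 above. Over all miRNAs read at both altitudes, 345 of 626 lay below 0. The median log2 fold changes were -0.60 and -0.11. With RLE size factors, DESeq2 or a single fit over 36 libraries, 11 of the 13 rows lay below 0. Some rows are both arms of the same hairpin, so the rows are not independent. In lung 8 lay below 0 and 5 above (337 of 672 below 0 over all miRNAs), with a median of -0.18 against -0.0032. A single fit over 36 libraries turned the 8 and 5 to 6 and 7. Above 0 were 6 of 7 in heart (median 1.36 against 0.0019 over all miRNAs), 8 of 9 in muscle (1.87 against 0.11) and 8 of 11 in spleen (0.86 against -0.04), many of them at few counts. Over all miRNAs, 291 of 582 lay above 0 in heart, 308 of 578 in muscle and 324 of 672 in spleen. Under the other scalings the number of epithelial rows above 0 in spleen was 9 or 10. Over the 70 combinations, 7 had every high-altitude library above every low-altitude library and 2 the reverse, against 275 and 339 of 6955 over all miRNAs. In kidney chi-miR-141-3p had 850, 547 and 685 RPM at high altitude and 1282, 870 and 825 RPM at low altitude, with overlapping groups (-0.55 ± 0.69, SE, edgeR adjusted p = 1). In lung it had 5534, 2961 and 7251 RPM against 5878, 10705 and 6869 RPM (-0.18 ± 0.62, SE, edgeR adjusted p = 1). The summed epithelial markers of the kidneys were 1742, 5484 and 1467 RPM at high altitude and 2442, 2461 and 8020 RPM at low altitude. MiR-200b-3p was at 0 in 4 of the 6, but at 3023 RPM in high-altitude replicate 2 and 2896 RPM in low-altitude replicate 3. Of 12 groups of tissue and altitude, 6 held both a 0 and a count of at least 100 of miR-200b-3p, and 3 did so for miR-200b-5p. No other epithelial row had such a group. Both rows are in the direction counts, and miR-200b-3p is in the sums. The cause of these gaps was not tested.

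Of the 10 marker lists, 3 had sums that did not overlap between the altitudes in kidney, all higher at high altitude. The skeletal muscle markers miR-206-3p, miR-1-3p and miR-133a-3p, mostly miR-133a-3p, summed to 765, 664 and 1056 RPM at high altitude and to 101, 303 and 302 RPM at low altitude, with miR-206-3p at 0 in high-altitude replicate 2. The heart and slow fibre markers, neither at 0, summed to 72.3, 62.4 and 170 RPM against 4.05, 30.7 and 10.4 RPM. The airway cilia markers, mostly miR-34c-5p and neither at 0, summed to 11.6, 18.5 and 38.1 RPM against 6.07, 5.24 and 8.09 RPM. Kidneys of high-altitude replicate 2 and low-altitude replicate 3 stood apart in other lists. Their kidney marker sums were 276562 and 225052 RPM, against 419458 to 514764 RPM in the others. MiR-10a-5p and miR-10b-5p were lowest in these kidneys. Their miR-194-5p went the other way, at 3807 and 4518 RPM against 1192 to 2504 RPM. Their endothelial sums were 13803 and 13744 RPM, against 5204 to 7604 RPM. Each had the lowest chi-miR-96-5p (0.622 and 4.54 RPM) and chi-miR-183-5p (3.94 and 17.1 RPM) of its altitude. For chi-miR-182-5p this held at high altitude only (55.3 RPM). The part of any of these markers in the kidney values of the strands was not tested.

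The median log2 fold change of the 3 strands was -0.96 in kidney, 1.58 in lung, 0.93 in muscle and 0.61 in spleen, and none is given for heart. The same median over all miRNAs with reads was -0.21 in kidney, -0.0032 in lung, 0.22 in muscle and -0.03 in spleen. Each median of the strands is the value of 1 of them, that of chi-miR-183-5p in kidney, muscle and spleen and that of chi-miR-182-5p in lung. Over the alternatives the value of chi-miR-183-5p ran from -1.39 to 0.067 in kidney, from 0.70 to 1.08 in muscle and from -0.24 to 6.05 in spleen. Scaling by library totals moved the median of all miRNAs by 0.17 in heart and -0.13 in muscle, and a single fit over 36 libraries moved it by -0.24 in heart and 0.13 in lung. In lung, where the fitted fold changes of the 3 strands were all above 0, they were so under each scaling tried. A scaling moves all miRNAs of a library alike, so this says little. Without high-altitude replicate 3, chi-miR-96-5p lay at -0.51 in lung.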

How the data were processed

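Base calls came from CASAVA 1.8. The authors aligned reads to ARS1 using Bowtie, with 0 mismatches allowed, and miRDeep2 gave mature miRNAs by miRBase. Their minimum for listing a miRNA was 3 reads in any library. The deposited values are counts, not normalized, for 36 libraries. Tissue, altitude and replicate number came from the labels. RPM was computed from the sum of all miRNA counts of a library, and log2(RPM + 1) was used for correlations.

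The altitudes were compared one tissue at a time by the quasi-likelihood test of edgeR 4.0.16 (R 4.3.3, glmQLFit and glmQLFTest, TMM factors), with Benjamini-Hochberg adjustment over 1391 miRNAs. The difference between the 5 tissues other than liver (4 degrees of freedom) came from an edgeR fit without the liver libraries, and the pairs of tissues and the interaction (4 degrees of freedom) from 1 edgeR fit of 12 groups over all libraries. In these an adjusted p under 0.05 was a call. The SE is the size of the log2 fold change divided by the square root of F. The fits were tested on simulated data. Python 3.11.15, NumPy 2.4.6, SciPy 1.17.1, pandas 2.3.3 and matplotlib 3.10.9 were used for the rest.

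The alternatives were DESeq2 1.42.0, RLE size factors, scaling by library totals, filterByExpr, a single fit over 36 libraries, replicate number or goat as a block, no minimum fold change, leaving out each goat or the liver, other averages of RPM, and pseudocounts of 0.1 and 10. The named miRNAs were the cluster rows, an epithelial list and, for each 5p strand, the 3 miRNAs with the highest r. MiRNAs sharing a seed with a member were also to be named, but no mature sequences were at hand, so that rule was not applied. Chi-miR-1271-5p was looked at without a check of its seed. Over 36 libraries its r was 0.488 with chi-miR-183-5p, 0.441 with chi-miR-96-5p and 0.396 with chi-miR-182-5p. The gene table was used only for which genes are neighbours. The members and lists were chosen with earlier results of these data known.

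Within a population, an equal replicate number was taken as the same goat in every tissue. Over 308 miRNAs, the deviations of such libraries from their group means had a mean r per goat of -0.0141 to 0.152.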

Additional observations from a re-analysis of the deposited data

Results flagged for a closer look

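In 18 sets of 6 libraries (3 strands in 6 tissues, both altitudes together), the gap between the highest or lowest library and its nearest neighbour was divided by the range of the set. Chance puts about 1 set in 20 above Dixon's 95% critical value, and 5 of the 18 were above it. That share holds for a single normally distributed group, and these sets pool both altitudes, so it is only a guide.

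High-altitude replicate 3 of lung stood apart for 2 strands. Its chi-miR-183-5p was 395.6 RPM against 28.0 to 104 RPM in the other lungs, and its chi-miR-96-5p was 32.73 RPM against 2.81 to 9.72 RPM. For chi-miR-182-5p it was also the highest lung, at 658 RPM, without such a gap. Spleen of high-altitude replicate 1 had 33.91 RPM of chi-miR-182-5p against 1.73 to 10.9 RPM in the other spleens.

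The remaining gaps were at low counts. Heart of low-altitude replicate 2 had 0.2783 RPM of chi-miR-96-5p, from 3 counts, with 0 in the other hearts, so that any read would give the widest possible gap. Muscle of low-altitude replicate 1 had 1.308 RPM of it, from 16 counts, against 0 to 0.391 RPM in the other muscles.

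Chi-miR-182-5p lay in opposite directions in lung and liver. Every high-altitude lung was above every low-altitude lung (log2 fold change 1.583), and every high-altitude liver was below every low-altitude liver (log2 fold change -1.32). The difference between these tissues was not tested, because liver was part of the choice of the members.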

How the results depend on the processing

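All 3 strands differed between the 5 tissues other than liver under each of 10 alternatives, added after the data had been seen, with an adjusted p of at most 3.10e-06 for chi-miR-182-5p, 0.000149 for chi-miR-183-5p and 0.00132 for chi-miR-96-5p. The order of the tissues was the same under 9 of 9 alternatives for chi-miR-183-5p, 6 of 9 for chi-miR-182-5p and 4 of 9 for chi-miR-96-5p, and lung, kidney and liver were the upper 3 each time. No interaction of a strand passed under either alternative. No correlation passed with another pseudocount, but 6 libraries per tissue can hardly pass, so nothing is read from this. The sign changed for 2 weak ones in muscle, that of chi-miR-183-5p and chi-miR-96-5p (0.0358 with a pseudocount of 0.1) and that of chi-miR-96-5p and chi-miR-182-5p (-0.00774 with 10).

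Between altitudes, DESeq2 called 1 of the 15 combinations, chi-miR-96-5p in kidney (log2 fold change -3.90, adjusted p = 0.0407). Over its alternatives the adjusted p ran from 0.0407 to 1 and the log2 fold change from -4.54 to -2.56. No other alternative called a strand. Of 176 refitted log2 fold changes 162 kept their sign, 13 changed it and 1 was 0 (chi-miR-96-5p in heart without low-altitude replicate 2, the only heart library with reads of it), none of these 14 called.

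Leaving out each goat in turn gave a log2 fold change of either sign in 8 combinations. Chi-miR-183-5p ran from -0.86 to 0.23 in heart (the upper value without high-altitude replicate 2), from -1.39 to 0.067 in kidney (the upper value without low-altitude replicate 1) and from -0.24 in spleen without high-altitude replicate 1 to 6.05. Chi-miR-96-5p ran from -0.51 in lung without high-altitude replicate 3 to 1.97, and in muscle from -1.14 to 1.89 (the upper value without low-altitude replicate 1). Chi-miR-182-5p ran from -0.017 in heart without high-altitude replicate 3 to 0.57, from -0.30 in spleen without high-altitude replicate 1 to 2.66, and in kidney from -0.69 to 0.32, with values above 0 without replicate 2 of either altitude. It also changed sign in kidney with RLE size factors (0.0088) and DESeq2 (0.0084), and in heart with a single fit over 36 libraries (-0.028).

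Over the 5 tissues edgeR called 3 miRNAs, DESeq2 148, a single fit over 36 libraries 47 and filterByExpr 12. Leaving out 1 goat gave 0 to 12 calls, with 5 without high-altitude replicate 1, 12 without high-altitude replicate 2, and 0 without replicate 3 of either altitude. The cause of these changes was not tested.

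With the replicate number as a block, 0 miRNAs were called, and chi-miR-96-5p in muscle had a log2 fold change of 0.42 in place of -0.51. No label pairs goats of equal number in the populations, and they were not taken as pairs. The correlations of their deviations ran from -0.462 to 0.513, and 17 of 36 libraries, among them all 6 of heart, were most like the one of their own number. The goat as a block changed no call of a strand between tissues.

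Heart, muscle and spleen libraries had at most 29 counts of chi-miR-183-5p and 16 of chi-miR-96-5p, which limits what these tissues can show. The filter filterByExpr left out chi-miR-96-5p in all 3 and chi-miR-183-5p in spleen, and DESeq2 gave no adjusted p for chi-miR-96-5p in heart and spleen.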
